A study of Homo sapiens with 8 samples.

Results

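The genes of the type I interferon response were examined by RNA sequencing in HaCaT, an immortal line of keratinocytes from adult human skin, in 8 libraries. In 4 of them, labelled OGD-R, the cells had been deprived of oxygen and glucose and then resupplied (OGD/R), and the other 4 were Controls, for which the labels give no treatment. The labels place the sampling at an early stage. The durations of deprivation and return, the culture medium and any interferon or nucleic acid added to the cells are not stated in the sources used here. All libraries come from the same line, and whether replicates were separate cultures is not stated, so p-values reflect only how far these libraries differ, which may be technical. The gene set holds 38 interferon-stimulated genes chosen by symbol, each found under a single Ensembl ID among the 24252 rows of each deposited table. Their values are FPKM, fragments per kilobase of transcript, scaled to library depth, so levels of genes of unlike length can be set roughly side by side. This scaling does not remove differences in the make-up of libraries. All values of a library summed to 428984 and 431282 FPKM in Controls 3 and 4, and to 460525 to 475385 FPKM in the other libraries. In RNA from bulk culture, a higher level in a few cells and a higher level in all cells cannot be told apart.

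Type I interferons are cytokines that cells release after sensing foreign or misplaced nucleic acid. They bind the receptor chains IFNAR1 and IFNAR2, and the kinases JAK1 and TYK2 then phosphorylate STAT proteins, among them STAT2, which with IRF9 forms part of the complex ISGF3. This complex binds the interferon-stimulated response element (ISRE) in promoters and switches on genes whose products degrade viral RNA, block viral entry or translation, and tune the pathway itself. Keratinocytes are known to keep a low tonic activity of this pathway, in part through interferon kappa (IFNK), and a number of its genes can also be raised by IRF3 or by unphosphorylated ISGF3 without new interferon.

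The ISRE is shown here because it is the sequence through which many interferon-stimulated genes are known to be controlled. Promoters of 250 bases before to 50 bases after the start site, taken from RefSeq (GRCh38.p14), were matched for 30 of the 38 genes, DDX58 under its current symbol RIGI. Those of USP18, IFIT2, OAS2, OASL, IRF7, IFITM2, MX2 and TRIM22 were not matched. The letters GAAANNGAAA, the core of the ISRE, were searched on both strands. For 6 genes that were higher in OGD-R, 80 bases around the most upstream core are given 5′ to 3′ along the strand of the gene, with every match in capitals, and cores on the other strand read TTTC, any pair of bases, TTTC. IFIT3 lies at chr10:89327811-89327890, plus strand, PARP9 at chr3:122564292-122564371, minus strand, and IFI44 at chr1:78649741-78649820, plus strand. PARP14 lies at chr3:122680780-122680859, plus strand, DDX60 at chr4:168318791-168318870, minus strand, and IFIT1 at chr10:89392477-89392556, plus strand.
IFIT3: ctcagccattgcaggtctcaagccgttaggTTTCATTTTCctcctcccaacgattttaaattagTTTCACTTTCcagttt
PARP9: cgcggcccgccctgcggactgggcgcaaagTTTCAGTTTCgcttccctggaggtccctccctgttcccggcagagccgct
IFI44: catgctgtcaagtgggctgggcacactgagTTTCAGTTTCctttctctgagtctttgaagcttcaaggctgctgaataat
PARP14: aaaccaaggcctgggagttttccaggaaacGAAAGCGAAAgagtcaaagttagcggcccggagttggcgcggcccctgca
DDX60: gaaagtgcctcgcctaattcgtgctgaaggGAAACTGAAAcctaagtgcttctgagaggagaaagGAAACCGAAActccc
IFIT1: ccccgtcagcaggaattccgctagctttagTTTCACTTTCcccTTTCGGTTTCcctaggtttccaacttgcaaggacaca
IFIT3, DDX60 and IFIT1 each show the core at more than 1 place in these windows. Some genes have several promoters in the table, so genes with the core in at least 1 promoter were counted. They were 21 of the 30 genes, against 4.38% of all 27305 genes in the table (3.57% of its 35116 promoters). By call, they were 8 of 10 genes called higher in OGD-R, 7 of 12 genes tested but not called, and 6 of 8 genes too low to test. Of the called genes with a promoter, OAS1 and STAT2 had no match in this window. The shorter letters of the gamma-activated site, TTCNNNGAA, known from the response to interferon gamma, were searched on both strands too. They were found for 10 of the 30 genes, against 9.38% of all genes in the table (7.66% of its promoters). The motifs can share bases, since both hold GAA. Over all tested genes with a matched promoter, 46 of the 324 that held the ISRE core were called higher (14.2%), against 812 of 8864 (9.16%) in all, and 26 were called lower (8.02%), against 868 (9.79%) in all. These shares include the interferon genes themselves and are given as a description.

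The OGD-R libraries lay close together and the Control libraries fell in 2 pairs. Over the genes whose mean reached 1 FPKM, log2 values correlated at 0.992 to 0.993 among OGD-R libraries, at 0.992 between Controls 1 and 2, at 0.991 between Controls 3 and 4, but at only 0.874 to 0.881 between the pairs. Controls 1 and 2 correlated with OGD-R at 0.940 to 0.947, above their correlation with Controls 3 and 4. Controls 3 and 4 correlated with OGD-R at 0.879 to 0.887. The cause of this split was not tested, and counts are therefore given with all Controls and with each pair left out. The pairs were seen in these same data, and each such fit keeps only 2 Controls that lie close together. Its p-values therefore reflect the closeness of that pair and not the spread among all Controls. A gene of 2000 bases gained 0.0200 to 0.0296 FPKM with each fragment, as judged from the spacing of low values, so levels under 0.1 FPKM rest on few fragments. All 12 keratinocyte markers were present and summed to 14301 to 15653 FPKM in OGD-R and 11356 to 12522 FPKM in Control. Of them KRT5, KRT14 and TRIM29 were called higher in OGD-R and KRT6A, SFN and ITGB4 lower. The 12 leukocyte markers summed to 0.26 to 0.56 FPKM in OGD-R and 0.22 to 0.90 FPKM in Control, with CD8A and CLEC4C among those at 0 in every library. Summed fibroblast markers were at 3.85 to 5.08 FPKM in OGD-R and 0.92 to 8.72 FPKM in Control, melanocyte markers at 2.29 to 2.59 and 1.23 to 1.60 FPKM, and endothelial markers at 0.30 to 0.46 and 0.05 to 0.20 FPKM. COL1A1 was the largest term of the fibroblast sum, at means of 3.79 FPKM in OGD-R and 4.64 FPKM in Control, while COL1A2 was at 0 in every library. MITF was the largest term of the melanocyte sum, at means of 1.85 FPKM in OGD-R and 1.02 FPKM in Control, while TYR was at 0 in every library. The part of these marker genes in the results was not tested.

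The antiviral effectors TRIM22, SAMD9, PARP9 and PARP14, the IFIT genes IFIT1 and IFIT3, OAS1 and the membrane protein IFITM1 were higher in OGD-R. IRF1, IRF7, IRF9, ISG15 and the receptor genes IFNAR1 and IFNAR2 did not pass the test. Of the 38 genes, 29 averaged at least 1 FPKM and were tested with limma on log2(FPKM + 1); 11 were called higher in OGD-R at an adjusted p of at most 0.05 (Benjamini-Hochberg over all 11740 genes tested) and 0 were called lower. Over all genes tested, 10.2% were called higher and 9.69% lower, which is 1202 and 1138 genes. When libraries were rescaled without mitochondrial genes these became 1600 and 871 (13.6% and 7.42%), with 11 and 0 in the interferon set. At an unadjusted p of at most 0.05, 16 members were higher and 1, IFI16, was lower, against 17.2% and 17.0% of all genes tested. The 11 called were IFIT1, IFIT3, OAS1, DDX60, STAT2, IFITM1, TRIM22, SAMD9, PARP9, PARP14 and IFI44, with log2 fold changes of 0.46 to 1.21. The median log2 fold change of the 29 was 0.48, against 0.02 over all genes tested. Without a filter on low values, all 38 were tested, 9 were called higher and 0 lower, against 7.86% and 5.37% of 21214 genes, and the median was 0.37 against 0.01 over those genes.

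**Figure D1:**
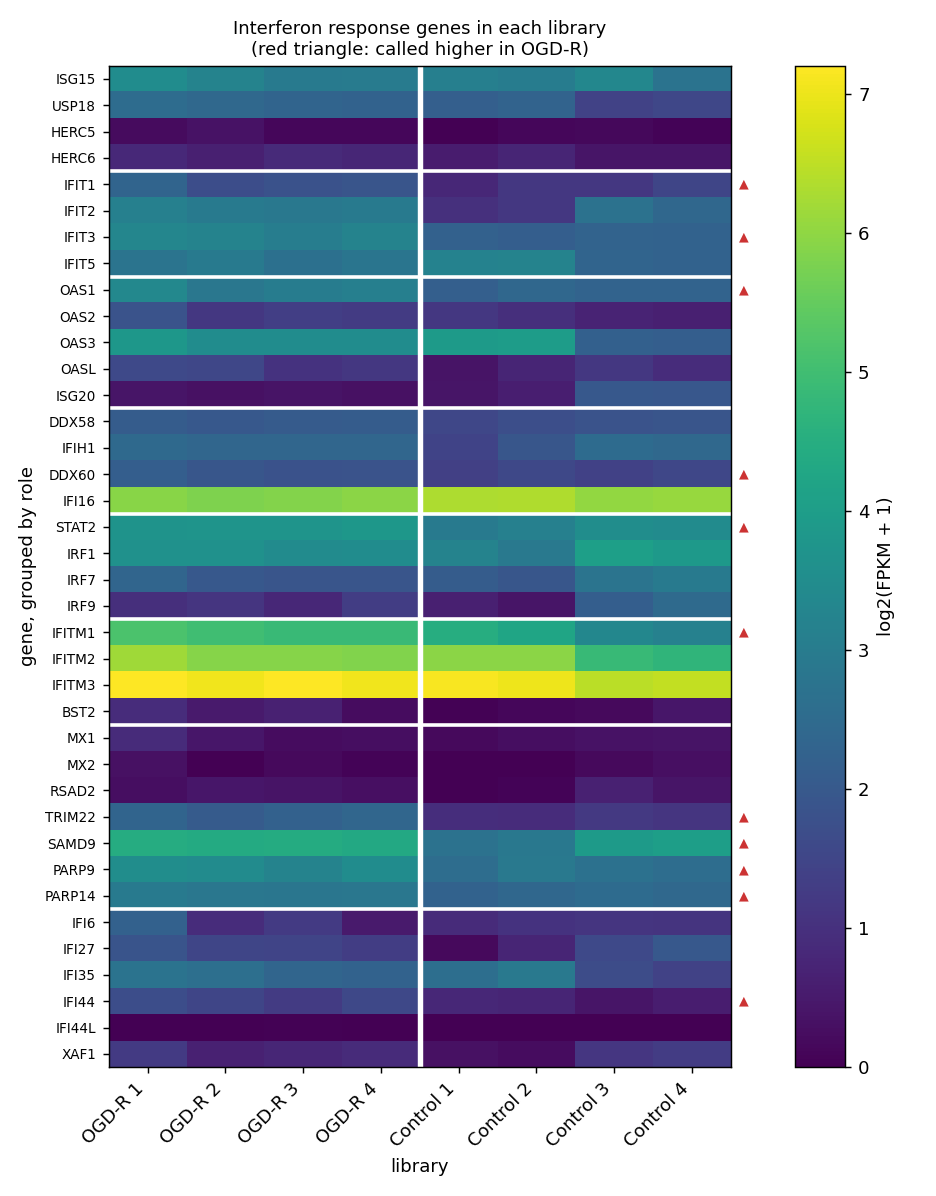
Level of each of the 38 interferon response genes in each library, as log2(FPKM + 1) in colour, with genes as rows grouped by role and libraries as columns, OGD-R 1 to 4 left of Controls 1 to 4. IFITM3, IFI16 and IFITM2 are the brightest rows, the 9 genes that averaged under 1 FPKM are among the darkest, and Controls 1 and 2 differ from Controls 3 and 4 in many rows.

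**Figure D2:**
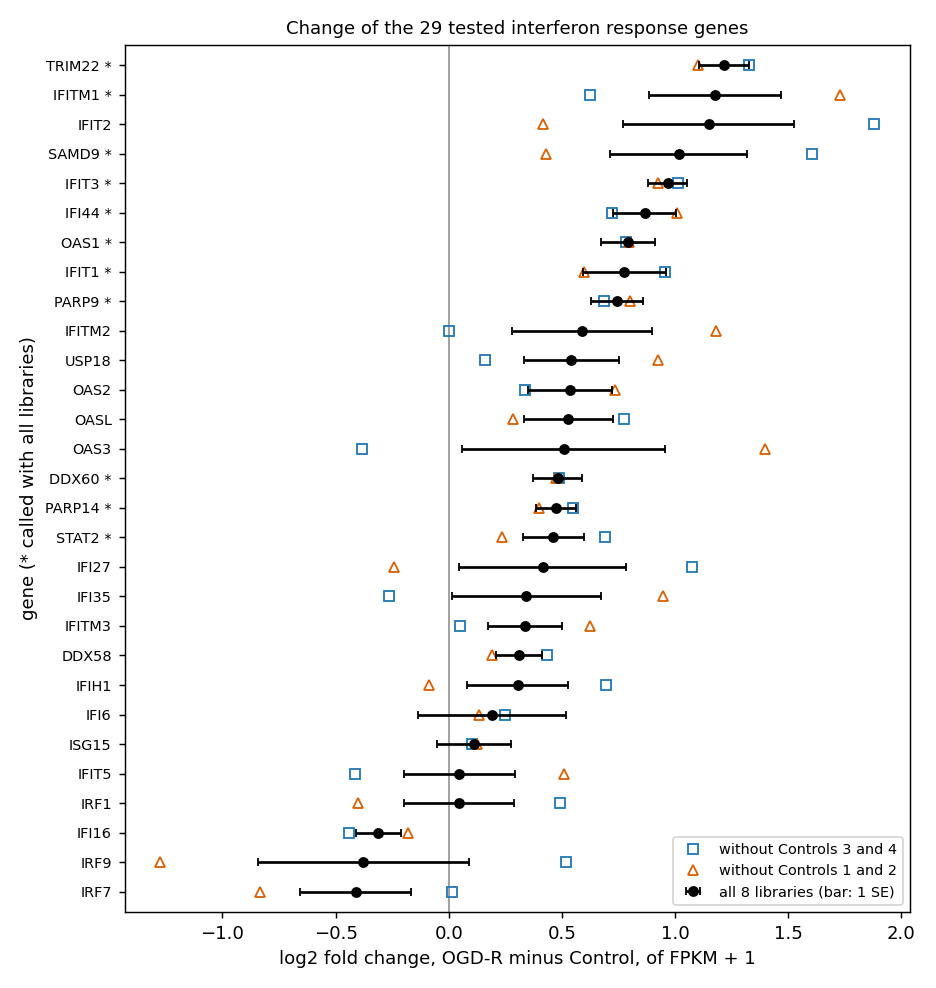
log2 fold change, OGD-R minus Control, of log2(FPKM + 1) for the 29 tested interferon response genes, with all Controls (bars are 1 SE) and with each pair of Controls left out. The 11 called genes lie between 0.46 and 1.21, and 9 genes change sign between the fits that leave out a pair.

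Among the IFIT proteins, IFIT1 binds viral RNA that lacks the methylation of the host cap and holds back its translation. Of the 4 IFIT genes, 2 were called higher, against 10.2% of all genes tested. IFIT3, which stabilises IFIT1 on RNA (ENSG00000119917, chr10:89327894-89340971, plus strand, GRCh38), was at 8.94, 8.27, 7.37 and 8.39 FPKM across OGD-R 1 to 4, against 3.73, 3.42, 3.94 and 3.79 FPKM in Controls 1 to 4. Every OGD-R library was above every Control, and the libraries of each group lay close together. Its means were 8.24 ± 0.649 FPKM in OGD-R and 3.72 ± 0.218 FPKM in Control (SD, n = 4 each), a log2 fold change of 0.97 ± 0.086 (SE, adjusted p = 0.000296). IFIT1, the cap-sensing member (ENSG00000185745, chr10:89392546-89406486, plus strand), was at 3.96, 2.27, 2.52 and 2.75 FPKM across OGD-R 1 to 4, against 0.734, 1.25, 1.25 and 1.84 FPKM in Controls 1 to 4. The groups did not overlap, and OGD-R 1 was the highest library. Its log2 fold change was 0.78 ± 0.18 (SE, adjusted p = 0.0218), and OGD-R 1, OGD-R 3 and OGD-R 4 left out in turn gave adjusted p = 0.056, 0.0526 and 0.0598. IFIT2 spanned 6.35 to 7.76 FPKM in OGD-R and 1.0 to 5.52 FPKM in Control, with 5.52 and 4.30 FPKM in Controls 3 and 4. All OGD-R libraries were above all Controls, but the log2 fold change was 1.15 ± 0.38 (SE, adjusted p = 0.0663) and did not pass; it passed without Controls 3 and 4, at 1.88 (adjusted p = 9.87e-07), and without Controls 1 and 2, at 0.42 (adjusted p = 0.00675). IFIT2 shares exon sequence on the opposite strand with LIPA, a lysosomal lipase gene at 48.7 FPKM in OGD-R and 38.8 FPKM in Control, and whether the reads were counted by strand is not given. IFIT5 was at 5.88, 6.82, 5.32 and 5.96 FPKM across OGD-R 1 to 4, against 8.2, 8.41, 4.03 and 3.77 FPKM in Controls 1 to 4. OGD-R lay between the Control pairs, and the log2 fold change was -0.42 (adjusted p = 0.0046) without Controls 3 and 4 and 0.51 (adjusted p = 0.00115) without Controls 1 and 2.

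The OAS enzymes sense double-stranded RNA and make a short RNA messenger that starts the breakdown of RNA. Of the 4 tested genes of the OAS family, 1 was called higher, against 10.2% of all genes tested. OAS1 (ENSG00000089127, chr12:112906777-112933222, plus strand) was at 9.29, 6.29, 7.1 and 7.56 FPKM across OGD-R 1 to 4, against 3.58, 4.31, 3.89 and 3.88 FPKM in Controls 1 to 4. The Controls were tightly grouped and all lay below OGD-R. Its means were 7.56 ± 1.27 FPKM in OGD-R and 3.91 ± 0.299 FPKM in Control (SD, n = 4 each), a log2 fold change of 0.79 ± 0.12 (SE, adjusted p = 0.00312). OAS2 spanned 1.26 to 2.61 FPKM in OGD-R and 0.553 to 1.25 FPKM in Control and OASL, which has no synthetase activity and enhances RIG-I signalling, spanned 1.09 to 1.98 FPKM in OGD-R and 0.31 to 1.27 FPKM in Control; neither was called, with log2 fold changes of 0.53 (adjusted p = 0.0794) and 0.53 (adjusted p = 0.0959). OAS3 was at 12.9, 10.4, 10.4 and 10.3 FPKM across OGD-R 1 to 4, against 14.3, 14.9, 3.62 and 3.48 FPKM in Controls 1 to 4. OGD-R again lay between the Control pairs, so that the log2 fold change was -0.38 (adjusted p = 0.00838) without Controls 3 and 4 and 1.40 (adjusted p = 1.89e-06) without Controls 1 and 2. ISG20, an exonuclease that degrades RNA, was too low to test, at 0.337, 0.256, 0.313 and 0.255 FPKM across OGD-R 1 to 4, against 0.328, 0.52, 2.96 and 2.9 FPKM in Controls 1 to 4, and was high only in Controls 3 and 4.

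Among the sensors, DDX60 rose and IFI16 had the opposite sign. DDX60, a helicase reported to aid RIG-I-like sensing of RNA, was at 3.48, 2.82, 2.55 and 2.61 FPKM across OGD-R 1 to 4, against 1.57, 1.93, 1.62 and 1.92 FPKM in Controls 1 to 4. All OGD-R libraries were above all Controls, with a log2 fold change of 0.48 ± 0.11 (SE, adjusted p = 0.0171); leaving out OGD-R 2 gave adjusted p = 0.0541. DDX58, which encodes RIG-I, a sensor of RNA with a bare 5′ triphosphate, spanned 2.96 to 3.26 FPKM in OGD-R and 1.89 to 2.72 FPKM in Control. Its groups did not overlap, but the log2 fold change of 0.31 ± 0.10 (SE, adjusted p = 0.068) did not pass. IFIH1, which encodes MDA5, a sensor of long double-stranded RNA, was at 4.51, 4.18, 4.16 and 4.16 FPKM across OGD-R 1 to 4, against 1.74, 2.84, 4.77 and 4.39 FPKM in Controls 1 to 4. Only Controls 1 and 2 were below all OGD-R libraries, and the log2 fold change was 0.69 (adjusted p = 0.00152) without Controls 3 and 4 and -0.09 (adjusted p = 0.35) without Controls 1 and 2. IFI16, a sensor of DNA in the nucleus and cytosol, had the second highest mean of the set and was at 60.2, 54.9, 57.1 and 61.4 FPKM across OGD-R 1 to 4, against 78.5, 80.7, 65.2 and 67.4 FPKM in Controls 1 to 4. It was the only member with all OGD-R libraries below all Controls, which held for 14.8% of all genes tested. Its log2 fold change of -0.31 ± 0.099 (SE, adjusted p = 0.0605) did not pass; it passed under median-of-ratios scaling (adjusted p = 0.0175), without Controls 3 and 4 at -0.44 (adjusted p = 0.000362) and without Controls 1 and 2 at -0.18 (adjusted p = 0.0383).

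**Figure D3:**
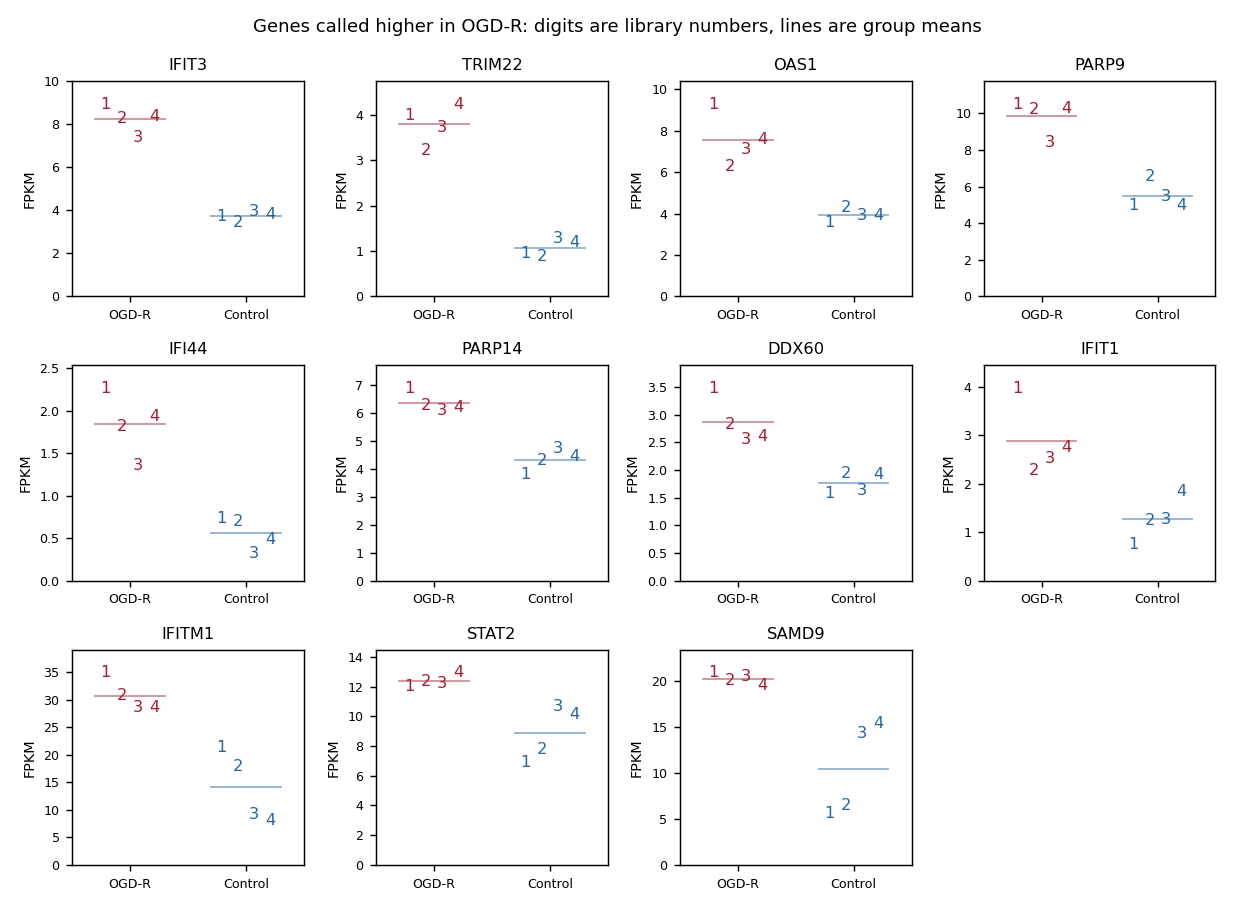
FPKM of the 11 called interferon response genes in each library, 1 panel per gene, with OGD-R left of Control; digits are library numbers and lines are group means (n = 4 each). In each panel all OGD-R libraries lie above all Controls, and for SAMD9, STAT2 and IFITM1 the Controls split in pairs.

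Of the transcription factors, only STAT2 was called higher. The Controls split in pairs for STAT2 and for the others. STAT2, the ISGF3 subunit with the activation domain, was at 12, 12.4, 12.2 and 12.9 FPKM across OGD-R 1 to 4, against 6.87, 7.76, 10.6 and 10.1 FPKM in Controls 1 to 4. The groups did not overlap, yet Controls 3 and 4 stood close to OGD-R. Its log2 fold change was 0.46 ± 0.14 (SE, adjusted p = 0.0466), and OGD-R 1, OGD-R 2, OGD-R 3, OGD-R 4, Control 1 and Control 2 left out in turn gave adjusted p = 0.101, 0.113, 0.11, 0.122, 0.0654 and 0.0824. IRF9, the subunit of ISGF3 that contacts DNA, was at 0.949, 1.17, 0.743 and 1.47 FPKM across OGD-R 1 to 4, against 0.553, 0.337, 3.47 and 4.58 FPKM in Controls 1 to 4. IRF7, the factor that amplifies interferon alpha genes, was at 4.13, 2.95, 2.71 and 2.73 FPKM across OGD-R 1 to 4, against 3.31, 2.82, 5.85 and 6.76 FPKM in Controls 1 to 4. IRF1, a factor induced by both interferon gamma and NF-kB, was at 11.6, 11.4, 10.2 and 10.4 FPKM across OGD-R 1 to 4, against 8.42, 6.61, 15.8 and 13.8 FPKM in Controls 1 to 4. In all of these, Controls 3 and 4 were the highest libraries. Without Controls 3 and 4, IRF9 had a log2 fold change of 0.52 (adjusted p = 0.0147), IRF1 of 0.49 (adjusted p = 0.00266) and IRF7 of 0.01 (adjusted p = 0.945). Without Controls 1 and 2, the same genes had log2 fold changes of -1.28 (adjusted p = 5.8e-05), -0.40 (adjusted p = 0.00224) and -0.83 (adjusted p = 0.00051). IRF9 shares exon sequence on the same strand with AL136295.5, at 3.86 FPKM in OGD-R and 3.33 FPKM in Control, so its reads could be divided between them.

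The IFITM proteins sit in cell and endosome membranes and block fusion of entering viruses, and IFITM3, IFITM2 and IFITM1 were among the 4 genes of the set with the highest mean levels. IFITM3, the endosomal member with the highest level of the 38, was at 145, 130.5, 147 and 132 FPKM across OGD-R 1 to 4, against 139, 129, 87 and 91.9 FPKM in Controls 1 to 4. IFITM2 was at 71.4, 58.3, 58.9 and 56.4 FPKM across OGD-R 1 to 4, against 61.1, 60.9, 27.7 and 25.1 FPKM in Controls 1 to 4. IFITM1, which acts at the cell surface (ENSG00000185885, chr11:313506-315272, plus strand), was at 35, 30.7, 28.7 and 28.6 FPKM across OGD-R 1 to 4, against 21.4, 17.8, 9.08 and 8.03 FPKM in Controls 1 to 4. Controls 1 and 2 were at or near OGD-R for IFITM3 and IFITM2, but below it for IFITM1, while Controls 3 and 4 were low for all. IFITM1 was called, with means of 30.8 ± 2.96 FPKM in OGD-R and 14.1 ± 6.57 FPKM in Control (SD, n = 4 each) and a log2 fold change of 1.18 ± 0.29 (SE, adjusted p = 0.0256); OGD-R 1, OGD-R 2, OGD-R 3, OGD-R 4 and Control 3 left out in turn gave adjusted p = 0.0761, 0.0707, 0.0663, 0.0641 and 0.0579. IFITM3 had a log2 fold change of 0.34 (adjusted p = 0.188) and IFITM2 of 0.59 (adjusted p = 0.217). Without Controls 3 and 4 they were 0.05 (adjusted p = 0.59) for IFITM3 and -0.00 (adjusted p = 0.992) for IFITM2, and without Controls 1 and 2 0.63 (adjusted p = 5.47e-05) and 1.18 (adjusted p = 5.81e-06). The IFITM genes are closely similar copies, IFITM1 and IFITM2 share exon sequence on the same strand, and how the authors divided such reads is not given. BST2, which encodes tetherin, a protein that keeps budding virions on the cell, was too low to test, at 0.901, 0.449, 0.594 and 0.174 FPKM across OGD-R 1 to 4, against 0.0363, 0.0826, 0.133 and 0.341 FPKM in Controls 1 to 4.

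Among the MX GTPases and other effectors, the 4 tested genes were TRIM22, SAMD9, PARP9 and PARP14. All 4 were called higher, against 10.2% of all genes tested. The other 3, MX1, MX2 and RSAD2, were too low to test. TRIM22, a ubiquitin ligase with antiviral activity (ENSG00000132274, chr11:5689689-5737089, plus strand), was at 4.0, 3.23, 3.72 and 4.24 FPKM across OGD-R 1 to 4, against 0.94, 0.871, 1.28 and 1.18 FPKM in Controls 1 to 4. OGD-R stood well above Control in every library. Its means were 3.8 ± 0.436 FPKM in OGD-R and 1.07 ± 0.192 FPKM in Control (SD, n = 4 each), a log2 fold change of 1.21 ± 0.11 (SE, adjusted p = 0.000319). SAMD9, an inhibitor of poxvirus replication, was at 20.9, 20, 20.4 and 19.5 FPKM across OGD-R 1 to 4, against 5.59, 6.4, 14.2 and 15.3 FPKM in Controls 1 to 4. The Control pairs differed, with Controls 3 and 4 nearer to OGD-R. Its log2 fold change was 1.02 ± 0.30 (SE, adjusted p = 0.0481), and OGD-R 1, OGD-R 2, OGD-R 3, OGD-R 4, Control 1 and Control 2 left out in turn gave adjusted p = 0.114, 0.11, 0.115, 0.106, 0.071 and 0.0835. PARP9 and PARP14 belong to the ADP-ribosyltransferase family and act on interferon signalling. PARP9 (ENSG00000138496, chr3:122527924-122564577, minus strand) was at 10.5, 10.2, 8.39 and 10.3 FPKM across OGD-R 1 to 4, against 4.95, 6.57, 5.48 and 4.95 FPKM in Controls 1 to 4, a log2 fold change of 0.74 ± 0.11 (SE, adjusted p = 0.00344). PARP14 (ENSG00000173193, chr3:122680618-122730840, plus strand) was at 6.87, 6.26, 6.07 and 6.2 FPKM across OGD-R 1 to 4, against 3.77, 4.27, 4.73 and 4.42 FPKM in Controls 1 to 4, a log2 fold change of 0.47 ± 0.088 (SE, adjusted p = 0.00821). Neither pair of Controls stood near OGD-R for these genes. PARP9 shares exon sequence on the opposite strand with DTX3L, its partner ubiquitin ligase, at 15.6 FPKM in OGD-R and 14.3 FPKM in Control. MX1, the GTPase that traps influenza ribonucleoproteins, was at 0.858, 0.34, 0.176 and 0.197 FPKM across OGD-R 1 to 4, against 0.135, 0.198, 0.271 and 0.295 FPKM in Controls 1 to 4. MX2, which restricts HIV entry into the nucleus, was at 0.262, 0, 0.124 and 0.048 FPKM across OGD-R 1 to 4, against 0, 0, 0.135 and 0.216 FPKM in Controls 1 to 4. RSAD2, which encodes viperin, was at 0.199, 0.344, 0.294 and 0.237 FPKM across OGD-R 1 to 4, against 0, 0.0475, 0.59 and 0.339 FPKM in Controls 1 to 4. These libraries overlapped between groups for all 3 genes, and none reached 1 FPKM in any library.

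The remaining interferon-induced genes held 1 called member among 4 tested, against 10.2% of all genes tested that were called higher. IFI44, a cytoplasmic protein with a GTP-binding motif (ENSG00000137965, chr1:78649796-78664078, plus strand), was at 2.27, 1.82, 1.36 and 1.93 FPKM across OGD-R 1 to 4, against 0.736, 0.691, 0.324 and 0.49 FPKM in Controls 1 to 4. OGD-R was above both Control pairs. Its means were 1.84 ± 0.374 FPKM in OGD-R and 0.56 ± 0.19 FPKM in Control (SD, n = 4 each), a log2 fold change of 0.87 ± 0.14 (SE, adjusted p = 0.00436). IFI44 averaged under 1 FPKM in Control, so it reached the filter only through OGD-R. Its call was kept without the filter on low values. IFI27, a mitochondrial and nuclear membrane protein widely used as a marker of interferon exposure, was at 2.67, 1.82, 1.76 and 1.49 FPKM across OGD-R 1 to 4, against 0.138, 0.673, 2.0 and 2.93 FPKM in Controls 1 to 4. IFI35, a leucine zipper protein that pairs with NMI, was at 5.68, 5.17, 4.06 and 3.78 FPKM across OGD-R 1 to 4, against 5.07, 6.49, 2.18 and 1.68 FPKM in Controls 1 to 4. Only Controls 1 and 2 were below all OGD-R libraries for IFI27, and only Controls 3 and 4 for IFI35. The log2 fold changes of IFI27 and IFI35 were 1.07 (adjusted p = 0.0011) and -0.26 (adjusted p = 0.162) without Controls 3 and 4, and -0.24 (adjusted p = 0.216) and 0.95 (adjusted p = 0.000323) without Controls 1 and 2. IFI6, a mitochondrial survival protein, spanned 0.439 to 3.75 FPKM in OGD-R and 0.865 to 1.15 FPKM in Control with its highest value in OGD-R 1, a log2 fold change of 0.19 (adjusted p = 0.714). XAF1, a pro-apoptotic binder of XIAP, was too low to test, at 1.35, 0.567, 0.705 and 0.865 FPKM across OGD-R 1 to 4, against 0.244, 0.189, 1.23 and 1.43 FPKM in Controls 1 to 4. IFI44L, which is reported to restrain interferon signalling, was at 0.00918, 0, 0.0287 and 0 FPKM across OGD-R 1 to 4, against 0, 0, 0 and 0 FPKM in Controls 1 to 4, so it was at or near 0 in every library.

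The ISG15 system, a ubiquitin-like protein and its enzymes, did not pass the test in any member. ISG15 itself spanned 6.76 to 10.4 FPKM in OGD-R and 5.76 to 9.11 FPKM in Control, with means of 8.13 ± 1.65 FPKM in OGD-R and 7.42 ± 1.38 FPKM in Control (SD, n = 4 each) and a log2 fold change of 0.11 ± 0.16 (SE, adjusted p = 0.66). USP18, the protease that removes ISG15 and also silences IFNAR2, spanned 3.84 to 4.87 FPKM in OGD-R and 1.7 to 3.89 FPKM in Control. Its log2 fold change was 0.54 ± 0.21 (SE, adjusted p = 0.107), 0.16 (adjusted p = 0.196) without Controls 3 and 4 and 0.92 (adjusted p = 3.3e-05) without Controls 1 and 2; leaving out Control 2 alone gave an adjusted p of 0.0432. The ligases that attach ISG15 were too low to test. HERC5, the main human ISG15 ligase, was at 0.159, 0.279, 0.0918 and 0.0888 FPKM across OGD-R 1 to 4, against 0.0106, 0.0945, 0.105 and 0.0537 FPKM in Controls 1 to 4. HERC6, which does this work in the mouse, was at 0.787, 0.555, 0.801 and 0.706 FPKM across OGD-R 1 to 4, against 0.462, 0.686, 0.317 and 0.318 FPKM in Controls 1 to 4. The groups overlapped for both. UBA7, the enzyme that activates ISG15 for conjugation and which stands outside the 38 genes, was at 3.18, 2.48, 2.81 and 2.84 FPKM across OGD-R 1 to 4, against 0.72, 0.819, 0.696 and 0.572 FPKM in Controls 1 to 4. It rose, with no overlap of the groups and a log2 fold change of 1.17 ± 0.097 (SE, adjusted p = 0.000203). UBA7 averaged under 1 FPKM in Control, so it reached the filter only through OGD-R.

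Which members were called differed with the Controls used, and 12 were called higher against either pair. Without Controls 3 and 4, 18 of the 29 tested members were called higher and 3 lower (IFIT5, OAS3 and IFI16), against 22.8% and 32.4% of all genes. Without Controls 1 and 2, 19 were called higher and 4 lower (IFI16, IRF1, IRF7 and IRF9), against 39.2% and 28.4% of all genes. The 12 called higher in both were the 11 above and IFIT2, against 1417 genes (12.1%) of all tested. These fits share the OGD-R libraries, and their p-values reflect how close the Controls of 1 pair lie, not the spread among all Controls. IFIT5, OAS3, IRF1 and IRF9 were called in opposite directions. The median log2 fold change of the members was 0.52 without Controls 3 and 4, against -0.05 over all genes, and 0.47 without Controls 1 and 2, against 0.09 over all genes. In 14 members all OGD-R libraries were above all Controls, which held for 15.2% of all genes tested; these were the 12 and OAS2 and DDX58. In 1 member they were all below, and in 23 the groups overlapped. Controls 3 and 4 were both above Controls 1 and 2 in 15 of the 29 tested members and both below in 10, against 34.1% and 48.1% of all genes tested. Among the called members, the log2 fold change depended on the pair most for SAMD9, STAT2 and IFITM1. For SAMD9 it was 1.60 (adjusted p = 4.06e-07) without Controls 3 and 4 and 0.43 (adjusted p = 0.000368) without Controls 1 and 2. For STAT2 these were 0.69 (adjusted p = 6.66e-05) and 0.23 (adjusted p = 0.0126), and for IFITM1 0.62 (adjusted p = 0.000705) and 1.73 (adjusted p = 3.23e-07). For IFIT1 they were 0.95 (adjusted p = 0.00139) and 0.60 (adjusted p = 0.0107). The other 7 differed by less than 1.5 times between these fits. Leaving out single libraries, 6 calls held in every case, those of IFIT3, OAS1, TRIM22, PARP9, PARP14 and IFI44. No matching count over all called genes is given, so these 6 are a description only.

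**Figure D4:**
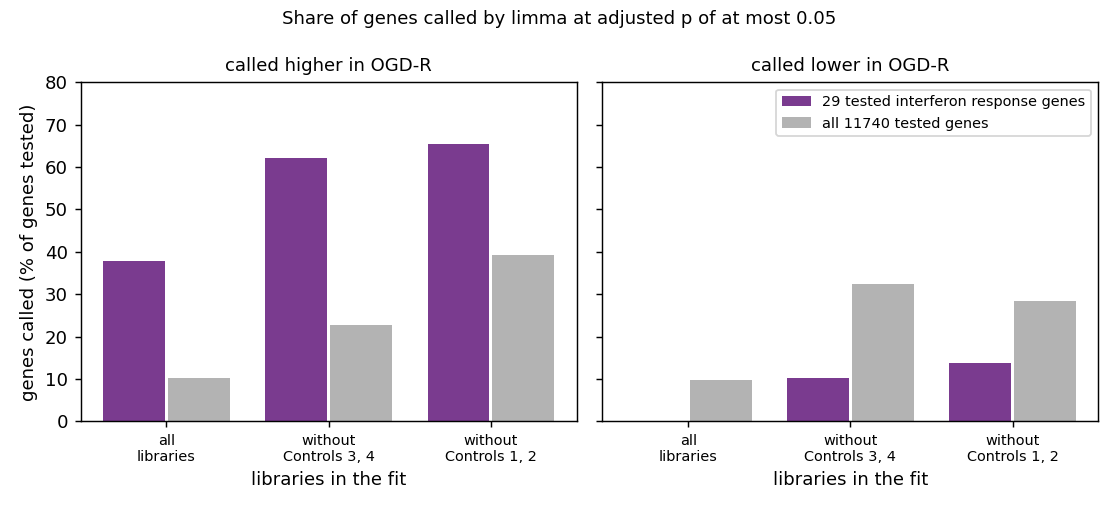
Percentage of genes called higher and lower in OGD-R (limma, adjusted p of at most 0.05) among the 29 tested interferon response genes and among all genes tested, with all Controls and with each pair of Controls left out. With all Controls 37.9% of the interferon genes and 10.2% of all genes were called higher, and 0% and 9.69% were called lower.

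OGD-R 1 was the highest OGD-R library for most of the set. This was so in 28 of the 38 members and in 9 of the 11 called, the exceptions being STAT2 and TRIM22. Among the 29 tested it was 23, against 39.2% of all genes tested. The FPKM of the 38 genes summed to 482, 421, 430 and 422 in OGD-R 1 to 4, against 392, 388, 306 and 305 in Controls 1 to 4, with IFITM3, IFI16 and IFITM2 as the largest terms. Leaving out any 1 of the 4 OGD-R libraries left 7 members called higher, against 6.28%, 6.34%, 6.09% and 6.06% of all genes without OGD-R 1, 2, 3 and 4.

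Interferon transcripts themselves were scarce. Of 12 ligand genes, 9 were listed at 0 in every library, among them IFNB1, the interferon that most cells make first, and IFNL1, a type III interferon of epithelia. CXCL10, a chemokine gene that responds strongly to interferon, was at 0.0907, 0, 0 and 0 FPKM across OGD-R 1 to 4, against 0, 0, 0 and 0.151 FPKM in Controls 1 to 4. IFNA1, an interferon alpha gene, was at 0.0538, 0.0226, 0.137 and 0 FPKM across OGD-R 1 to 4, against 0.131, 0.23, 0.34 and 0.315 FPKM in Controls 1 to 4. It was too low for the test, and without the filter on low values it was called lower (adjusted p = 0.0398). IFNK, the keratinocyte interferon, was at 0, 0, 0 and 0.165 FPKM across OGD-R 1 to 4, against 0.0858, 0.0472, 0 and 0 FPKM in Controls 1 to 4. IFNE, an epithelial type I interferon, was the only ligand tested and fell; it was at 0.691, 0.854, 0.732 and 0.928 FPKM across OGD-R 1 to 4, against 1.14, 2.52, 2.0 and 2.26 FPKM in Controls 1 to 4. Its groups did not overlap and its log2 fold change was -0.70 ± 0.16 (SE, adjusted p = 0.0188); the call was lost without OGD-R 1, OGD-R 2 and OGD-R 3, each left out in turn (adjusted p up to 0.0611).

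With all Controls, the receptors and kinases of the type I pathway were not called. IFNAR1 was at 7.48, 7.82, 7.41 and 7.42 FPKM across OGD-R 1 to 4, against 7.77, 7.52, 7.38 and 7.29 FPKM in Controls 1 to 4, level across all libraries, with a log2 fold change of 0.01 ± 0.07 (SE, adjusted p = 0.948). IFNAR2 spanned 2.21 to 2.56 FPKM in OGD-R and 2.27 to 3.09 FPKM in Control, with a log2 fold change of -0.16 (adjusted p = 0.328), or -0.29 (adjusted p = 0.0186) without Controls 3 and 4. For the type III receptor, IFNLR1 had a log2 fold change of -0.25 (adjusted p = 0.135) and its partner IL10RB of 0.35 (adjusted p = 0.111). Without Controls 1 and 2 these were -0.27 (adjusted p = 0.0458) and 0.55 (adjusted p = 0.000663). IFNGR2, a chain of the interferon gamma receptor, was the 1 of 6 receptor genes called, against 9.69% of all genes called lower. It was lower in OGD-R, at 10.4, 12.4, 10.9 and 9.74 FPKM across OGD-R 1 to 4, against 16.2, 18.5, 30.8 and 29.7 FPKM in Controls 1 to 4, a log2 fold change of -1.02 ± 0.21 (SE, adjusted p = 0.0133), or -0.63 (adjusted p = 0.000578) without Controls 3 and 4. JAK1 was at 24.8, 25.1, 25.2 and 25.5 FPKM across OGD-R 1 to 4, against 17.7, 19.3, 45.3 and 41.7 FPKM in Controls 1 to 4. OGD-R lay between the Control pairs, and its log2 fold change was 0.43 (adjusted p = 0.000424) without Controls 3 and 4 and -0.76 (adjusted p = 5.49e-06) without Controls 1 and 2. TYK2 spanned 9.12 to 10.4 FPKM in OGD-R and 8.31 to 11 FPKM in Control, with a log2 fold change of 0.06 (adjusted p = 0.722). Of 14 tested signalling genes and brakes, 2 rose and 2 fell, shares of 14.3% each that lie near the 10.2% and 9.69% of all genes. PIAS1, an inhibitor of activated STAT proteins, averaged 19.9 ± 0.707 FPKM in OGD-R and 11.4 ± 2.23 FPKM in Control (SD, n = 4 each), a log2 fold change of 0.78 (adjusted p = 0.00587). PTPN6, a phosphatase that dampens JAK signalling, averaged 11.9 ± 1.46 FPKM in OGD-R and 7.67 ± 0.57 FPKM in Control, a log2 fold change of 0.56 (adjusted p = 0.00844). SOCS3, an inhibitor of cytokine receptor kinases, fell, at 0.363, 0.506, 0.254 and 0.156 FPKM across OGD-R 1 to 4, against 1.31, 1.18, 4.25 and 3.3 FPKM in Controls 1 to 4, a log2 fold change of -1.31 (adjusted p = 0.0171), or -0.77 (adjusted p = 0.000801) without Controls 3 and 4; the call was lost without OGD-R 3 and OGD-R 4, each left out in turn (adjusted p up to 0.0563). PTPN11, another phosphatase of the pathway, fell with a log2 fold change of -0.30 (adjusted p = 0.0364); the call was lost without OGD-R 1, OGD-R 2, OGD-R 3, OGD-R 4, Control 1, Control 2 and Control 3, each left out in turn (adjusted p up to 0.114). SOCS1, the main feedback inhibitor of type I signalling, was too low to test, at 0.841, 0.389, 0.335 and 0.149 FPKM across OGD-R 1 to 4, against 0.607, 0.468, 2.35 and 1.59 FPKM in Controls 1 to 4.

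Upstream of interferon, TLR3 and MAVS rose and TICAM1 and TRAF3 fell, 2 of 15 tested sensing genes in each direction (13.3%), near the 10.2% and 9.69% of all genes. TLR3, the endosomal receptor for double-stranded RNA, was at 1.57, 1.52, 1.78 and 1.81 FPKM across OGD-R 1 to 4, against 0.698, 0.567, 0.539 and 0.452 FPKM in Controls 1 to 4, a log2 fold change of 0.77 ± 0.096 (SE, adjusted p = 0.00135). MAVS, the mitochondrial adaptor of RIG-I and MDA5, was at 25.8, 25.7, 25.8 and 25.7 FPKM across OGD-R 1 to 4, against 19.7, 18.8, 18.7 and 17.5 FPKM in Controls 1 to 4, a log2 fold change of 0.44 ± 0.074 (SE, adjusted p = 0.00514). Both were higher in every OGD-R library than in any Control. TLR3 averaged under 1 FPKM in Control, so it reached the filter only through OGD-R. TICAM1, the adaptor of TLR3, was lower, at 7.85, 5.78, 6.1 and 6.32 FPKM across OGD-R 1 to 4, against 9.93, 9.46, 25.5 and 27.4 FPKM in Controls 1 to 4, a log2 fold change of -1.20 (adjusted p = 0.0466), or -0.52 (adjusted p = 0.00321) without Controls 3 and 4 and -1.88 (adjusted p = 4.64e-07) without Controls 1 and 2; the call was lost without OGD-R 1, OGD-R 2, OGD-R 3, OGD-R 4, Control 3 and Control 4, each left out in turn (adjusted p up to 0.118). TRAF3, a ubiquitin ligase between adaptors and kinases, fell with a log2 fold change of -0.53 (adjusted p = 0.0108). IRF3, the factor that first switches on IFNB1, was at 30.8, 25.2, 26.7 and 28.4 FPKM across OGD-R 1 to 4, against 40.8, 44.6, 27.2 and 23.7 FPKM in Controls 1 to 4, with a log2 fold change of -0.24 (adjusted p = 0.435), or -0.60 (adjusted p = 0.000309) without Controls 3 and 4 and 0.12 (adjusted p = 0.266) without Controls 1 and 2.

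Of 75 other interferon-stimulated genes, 53 were tested. Of these, 12 were called higher (22.6%, against 10.2% of all genes) and 6 lower (11.3%, against 9.69%), and their median log2 fold change was 0.19, against 0.02 over all genes. Beside UBA7, genes with the smallest p-values included CASP1, EPSTI1, TNFSF10, TRIM38, PML and TRIM5. TNFSF10, which encodes the death ligand TRAIL, had the largest log2 fold change of the 53. It was at 34.9, 29.2, 34.8 and 36.2 FPKM across OGD-R 1 to 4, against 1.59, 3.44, 8.39 and 10.2 FPKM in Controls 1 to 4, a log2 fold change of 2.55 ± 0.43 (SE, adjusted p = 0.00531), 3.35 (adjusted p = 1.16e-06) without Controls 3 and 4 and 1.76 (adjusted p = 5.53e-07) without Controls 1 and 2. CASP1, the inflammasome protease, averaged 10.1 ± 1.14 FPKM in OGD-R and 3.78 ± 0.949 FPKM in Control (SD, n = 4 each), a log2 fold change of 1.24 (adjusted p = 0.00141). EPSTI1, a gene first known from epithelial and stromal contact, averaged 5.38 ± 0.505 FPKM in OGD-R and 2.91 ± 0.173 FPKM in Control, a log2 fold change of 0.70 (adjusted p = 0.00144). TRIM38, a regulator of innate signalling, and TRIM5, a restriction factor against retroviral capsids, had log2 fold changes of 0.46 (adjusted p = 0.00597) and 0.39 (adjusted p = 0.0178). For TRIM5, the call was lost without OGD-R 1, OGD-R 3 and OGD-R 4, each left out in turn (adjusted p up to 0.0618). PML, the organiser of nuclear bodies, fell, averaging 14.5 ± 1.11 FPKM in OGD-R and 21.3 ± 2.99 FPKM in Control, a log2 fold change of -0.52 (adjusted p = 0.0176); the call was lost without OGD-R 2, OGD-R 3 and OGD-R 4, each left out in turn (adjusted p up to 0.0625). Over all 89 tested genes of these pathway lists, 16 were called higher and 12 lower, 18.0% and 13.5% against 10.2% and 9.69% of all genes, with a median of 0.09. Rescaled without mitochondrial genes these were 21 and 6, 23.6% and 6.74% against 13.6% and 7.42% of all genes. In every single-library omission, 10 of the 16 and 2 of the 12 calls held. No matching counts over all called genes are given, so the difference cannot be read as a trait of these lists.

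**Figure D5:**
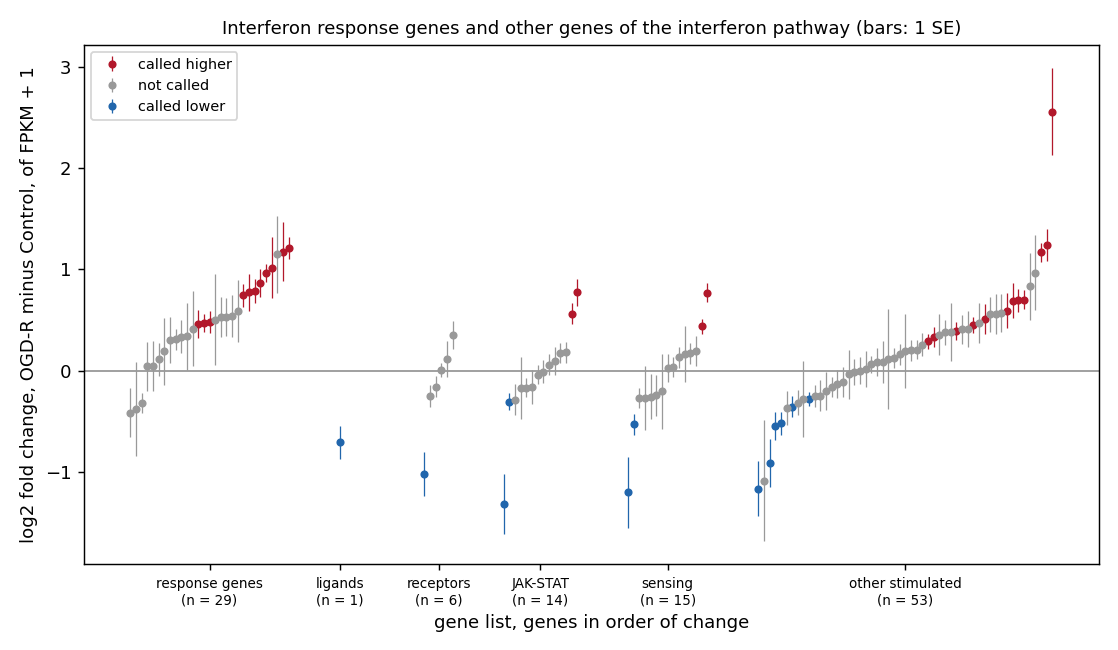
log2 fold change, OGD-R minus Control, of log2(FPKM + 1) for the 29 tested interferon response genes and for the tested ligands, receptors, JAK-STAT genes, sensing genes and other stimulated genes, in order of change within each list; bars are 1 SE. TNFSF10 is highest at 2.55, the only tested ligand, IFNE, lies at -0.70, and the JAK-STAT, sensing and other stimulated genes hold calls in both directions.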

How the data were processed

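RNA from 4 OGD-R and 4 Control libraries of HaCaT cells, grouped by their titles, was sequenced. The authors deposited 1 table of length-normalised values per library; the unit is not named in the tables, and these deposited values were read as FPKM from the spacing of low values in 944 single-exon genes. That reading rests on 11 to 18 values per library within 0.5% of the step. No source used here names the aligner, counting tool, strand setting, build or annotation. Per the labels' protocols, both a NEBNext and a SMARTer kit are named.

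The test was limma 3.58.1 (R 4.3.3, intensity trend, two-sided) applied to log2(FPKM + 1) of genes averaging at least 1 FPKM; p-values were adjusted by Benjamini-Hochberg and called at 0.05 or less. For low genes, fold changes on the log2(FPKM + 1) scale are understated. Among the called genes described here, IFI44, UBA7 and TLR3 reached the filter only through OGD-R. IFNE and SOCS3 reached it only through Control. The procedure was also run on simulated data in which every library had the spread of the OGD-R group. Those data did not hold the Control split, so the run cannot show how reliable calls are under it. Coordinates are those of GENCODE 29 on GRCh38, matched by ID; all 19974 Ensembl IDs matched. Replicate numbers were not used as pairs. Members and lists were chosen with earlier results of these data known, and no set test was run. Per-library values were given for members that were called, changed sign between Control pairs, had the 6 highest means or were too low to test; pathway genes were named by smallest p, at most 8 per list, plus 14 fixed genes, and some genes that this rule takes are not reported here. MB21D1 was not matched, so 128 of 129 pathway genes were used. Alternatives covered filters, pseudocounts, scalings, a replicate block and omitted libraries. Tables were read with pandas 2.3.3 in Python 3.11.15 and figures drawn with matplotlib 3.10.9.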

Additional observations from a re-analysis of the deposited data

Results flagged for a closer look

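In 6 of 76 gene and group combinations examined, the gap between a library and the nearest of the other 3 in its group, divided by the group's range, was above Dixon's 95% critical value; chance marks about 5% of groups. All 6 were OGD-R libraries, and 4 of them OGD-R 1. OAS3 was at 12.9 FPKM in OGD-R 1, against 10.3 to 10.4 FPKM in the other OGD-R libraries. IFIH1 was at 4.51 FPKM in OGD-R 1, with the others at 4.16 to 4.18 FPKM. IRF7 was at 4.13 FPKM in OGD-R 1, and the others at 2.71 to 2.95 FPKM. IFITM2 was at 71.4 FPKM in OGD-R 1, and the others at 56.4 to 58.9 FPKM. DDX58 was low in OGD-R 2, at 2.96 FPKM, with the others at 3.21 to 3.26 FPKM. PARP9 was low in OGD-R 3, at 8.39 FPKM, with the others at 10.2 to 10.5 FPKM, and remained above every Control. The reason was not tested.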

How the results depend on the processing

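Filters, pseudocounts, the trend and robust moderation left 9 to 11 of the 11 member calls. Under these settings 7.86% to 10.6% of all genes tested were called higher. STAT2 and SAMD9 were the calls lost among these and under median-of-ratios scaling. That scaling called 9 members higher and 1 lower, against 10.9% and 10.5% of all genes tested. Omitting Controls 3 and 4 gave 18 higher and 3 lower members, 32 and 25 pathway genes, and 2673 and 3807 of all genes. Omitting Controls 1 and 2 gave 19 and 4 members, 35 and 29 pathway genes, and 4603 and 3337 of all genes. Scaling without mitochondrial genes left 6 pathway genes lower. Leaving out each library gave 7 to 11 members higher and 0 to 0 lower, 10 to 22 pathway genes higher and 2 to 11 lower, and 711 to 1426 and 561 to 1312 of all genes.

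With the replicate block, 6 members (IFIT3, OAS1, IFITM1, TRIM22, PARP9 and IFI44), 8 and 2 pathway genes, and 625 and 507 of all genes were called. Whether the numbers pair the samples cannot be told from these values. Same-numbered libraries deviated together with correlations of 0.045 to 0.065, and 1 of 4 OGD-R numbers correlated best with its own. The deviations of the Controls include the split between their pairs, which could hide a pairing by number.

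Log2 fold changes that changed sign without Controls 3 and 4 were IFIT5 (-0.42), OAS3 (-0.38), IRF7 (0.0125), IRF9 (0.52), IFITM2 (-0.0012) and IFI35 (-0.26), and without Controls 1 and 2 IFIH1 (-0.087), IRF1 (-0.40) and IFI27 (-0.24). With single libraries left out, values that crossed 0 were IFIT5 (-0.12 to 0.21), IRF1 (-0.16 to 0.22) and IFI6 (-0.15 to 0.43). The cause was not tested. Depth limits genes under 1 FPKM, 9 of the 38.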
